A study of Mus musculus with 6 samples.

Results

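The 10 genes described here are members of the Notch pathway, namely the receptors Notch1, Notch2, Notch3 and Notch4, the ligands Jag1, Jag2 and Dll1, and the target genes Hes1, Hey1 and Heyl. They were picked by gene symbol for their place in the pathway, and were 10 of the 20071 genes counted. MSCs, which are marrow stromal cells able to become osteoblasts or adipocytes, were isolated from femurs of 6-week-old mice on a C57BL/6J background and kept for 7 days in osteogenic medium with 100 nM dexamethasone, ascorbic acid at 50 µg/mL and β-glycerophosphate at 5 mM. The control mice were Pcif1fl/fl (called WT here, as in the labels) and their littermates were Prrx1-Cre;Pcif1fl/fl (CKO), with 3 poly(A) RNA-seq libraries of each by the labels and the count table, although the series' design text speaks of duplicates. Both genotypes carried loxP sites around exons 5 to 7 of Pcif1, and CKO mice carried in addition Prrx1-Cre, a recombinase driven by a promoter active in limb mesenchyme, so that cells of other lineages in the culture would keep the gene. PCIF1 is the enzyme that adds the N6-methyl group of m6Am to a capped mRNA whose first base is adenosine. The comparison asked which transcripts differ in osteogenic MSCs when the gene is deleted in the mesenchymal lineage. The labels do not say whether the libraries of a genotype came from separate mice, and p-values then measure only the spread between these samples.

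Notch receptors are single-pass membrane proteins that are activated by ligands of the Jagged and Delta families on a neighbouring cell. Ligand pulling exposes the receptor to ADAM proteases and then to γ-secretase, and the released intracellular domain enters the nucleus, binds the DNA-binding protein RBPJ and recruits Mastermind coactivators. The Hes and Hey genes are its classic targets and encode basic helix-loop-helix repressors. In bone, Notch signalling is known for holding marrow stromal cells in an immature state and for acting on osteoblast differentiation in a stage-dependent way. None of these activation steps is measured by RNA-seq, which counts only the transcripts.

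The CKO and WT libraries held between 20258209 and 28227696 counts. Pcif1 itself was at 42.8, 41.7 and 39.3 CPM (reads of a gene relative to the TMM-adjusted library total) in WT replicates 1 to 3 and at 39.2, 37.8 and 39.7 CPM in CKO replicates 1 to 3, and the genotypes overlapped (log2 fold change -0.085, adjusted p = 0.645). Counts over the whole gene do not resolve exons 5 to 7, and the loss of these exons was not tested. WT replicate 3 stood apart from the other libraries, with 3.63% of its counts on mitochondrial genes against 1.40% to 1.57% elsewhere. Xist, expressed from the inactive X chromosome of female cells, was at 232 to 443 CPM in WT and 0.722 to 1.79 CPM in CKO, while the Y-linked Ddx3y was at 48.4 to 62.2 CPM in WT and 99.1 to 104 CPM in CKO. The WT libraries thus held RNA of both sexes, and the share of female cells and the genotype cannot be told apart. The 10 Notch genes lie on autosomes.

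Because PCIF1 acts on transcripts that begin with adenosine, the start sites of the receptors and of the main ligand are shown. Each is 25 bases long and reads 5′ to 3′ along the strand of the gene, from RefSeq on GRCm38.p6, with the annotated first transcribed base in capitals, at chr2:26503812-26503836 (minus strand) for Notch1, chr3:98013524-98013548 (plus) for Notch2, chr17:32166880-32166904 (minus) for Notch3, chr17:34564281-34564305 (plus) for Notch4 and chr2:137116510-137116534 (minus) for Jag1.
Notch1: gctcagagcctcacTagtgcctctg
Notch2: gccagaaactttcaGccaaacttcg
Notch3: agcccgacagcctcActtcggcgaa
Notch4: ggacattgtgtgacTcaggaaacag
Jag1: aggaaagaaagccgAgaggtggaag
Of 8 promoter windows available for 7 of the 10 genes (Hes1, Hey1 and Heyl had none in the table used), 2 had adenosine as the first base, those of Notch3 and Jag1, against 34.4% of all 32851 windows. These are annotated positions and not start sites measured in MSCs. The RefSeq start of Notch1 lies 12841 bases from the outermost start in GENCODE M21, whereas those of Notch2, Notch3 and Notch4 lie 11, 38 and 27 bases from it. For Jag1 the distance is 124 bases, for Jag2 281 bases, and for the windows of Dll1 1049 and 60 bases. The RBPJ motif TGGGAA, searched on both strands of the 300-base windows, was in 0 of the 8 windows and in 25.6% of all windows, and its longer form GTGGGAA, which overlaps it, was in 0 of 8 and in 6.38%. These counts say only that the letters are not in these windows.

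Among the 10 genes, Heyl was lower in CKO MSCs and was the only one past the threshold of adjusted p under 0.05. It fell 6.04-fold from a low WT level of 1.37 ± 0.419 CPM (SD, n = 3), whereas the 4 receptors and 3 ligands differed by less than the test could call. Hes1 was at a higher level in every CKO library than in any WT library and missed the threshold. Counted over the set, 1 of 10 was lower, where 4.51% of the 13733 genes tested were lower, and 0 of 10 were higher, where 2.88% of genes were (quasi-likelihood test of edgeR, Benjamini-Hochberg adjusted). At an unadjusted p under 0.05, 2 were lower (Notch2 and Heyl, where 11.8% of all genes were) and 1 was higher (Hes1, where 9.56% were), so that these counts lie near those over all genes. DESeq2 and limma-voom each gave 1 lower and 0 higher by adjusted p. All 3 CKO libraries lay below all 3 WT libraries for Notch2 and Heyl (2 of 10, where 15.7% of genes did so) and above them for Hes1 (1 of 10, where 15.0% did). The log2 fold change was under 0 for 8 of the 10, as it was for 49.7% of all genes tested, and its median was -0.15 over the 10 and 0.0017 over all genes. Without WT replicate 3 the count of the 10 became 3 lower (Notch2, Notch3 and Heyl) and 1 higher (Hes1), where 10.4% and 11.1% of all genes were lower and higher. Without CKO replicate 2 the count was 1 lower (Heyl) and 1 higher (Hes1), where 349 and 172 of the 13980 genes then tested were lower and higher. Over all genes, 620 were lower and 396 higher with the 6 libraries, and with offsets for GC content and length 673 were lower and 703 higher.

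**Figure D1:**
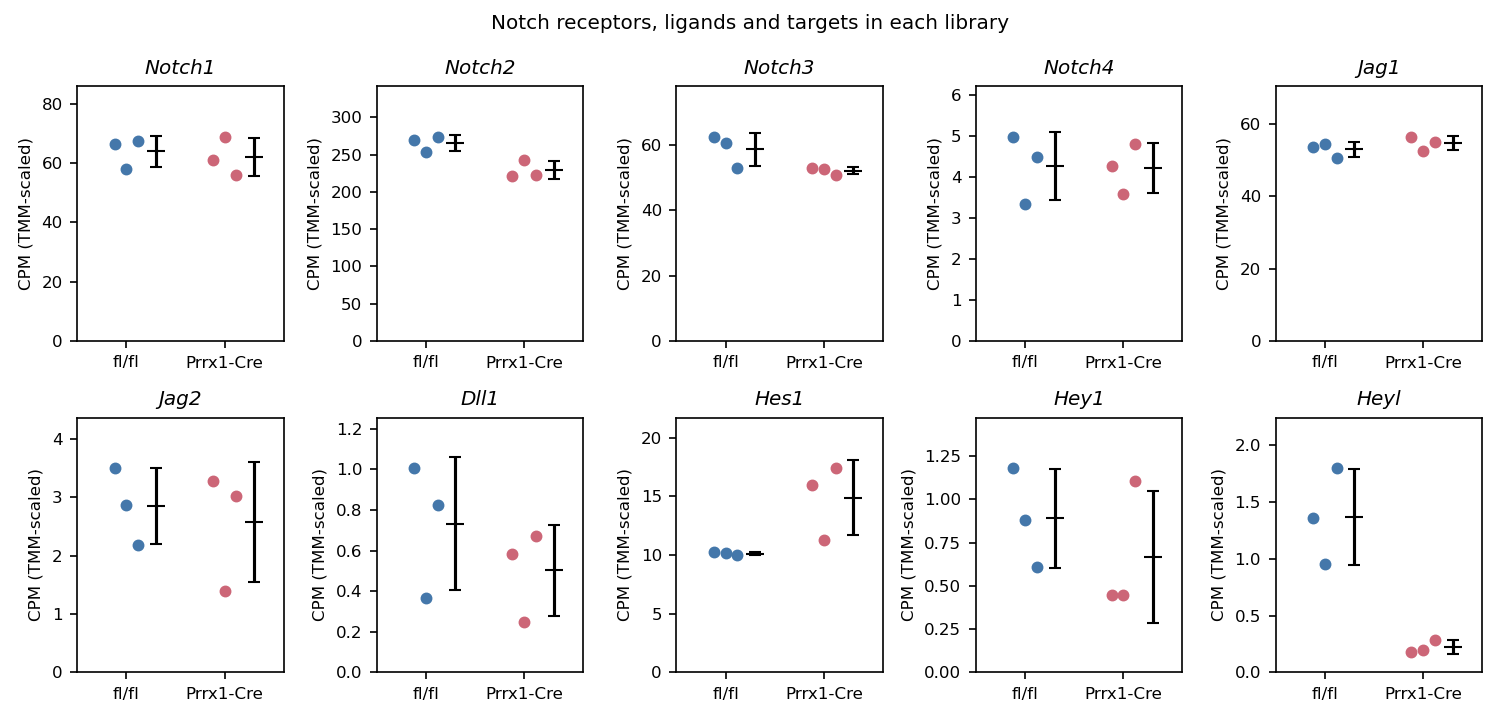
Level of each of the 10 Notch genes in CPM (TMM-scaled, linear axes that start at 0), with 1 point per library, WT (fl/fl) in blue and CKO (Prrx1-Cre) in red, and the mean with its SD (n = 3) as a black bar. Heyl points sit between 0.956 and 1.79 CPM in WT and between 0.180 and 0.289 CPM in CKO, while the points of Notch1, Notch4, Jag1 and Jag2 overlap between genotypes.

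Notch2, the receptor that is most abundant in these cells, spans 98013527 to 98150361 on chromosome 3 (plus strand, GRCm38). Its level was 269, 254 and 274 CPM in WT replicates 1 to 3 and 221, 243 and 223 CPM in CKO replicates 1 to 3. Every CKO library was below every WT library. The difference was small, with means of 266 ± 10.3 and 229 ± 12.2 CPM (SD, n = 3) and a log2 fold change of -0.21 (standard error 0.086, 95% interval -0.41 to -0.018), and it did not pass the edgeR test over all genes (adjusted p = 0.195). Without WT replicate 3 it was past the threshold, at -0.19 with an adjusted p of 0.0495, and with offsets for GC content and length it was -0.079.

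Notch3, a receptor known for its role in pericytes and vascular smooth muscle, lies on chromosome 17 from 32120820 to 32166852 (minus strand). It was at 62.5, 60.7 and 52.9 CPM in WT and at 53.0, 52.6 and 50.9 CPM in CKO replicates 1 to 3. WT replicate 3 alone reached down among the CKO values. The log2 fold change was -0.17 (standard error 0.099, interval -0.40 to 0.055, adjusted p = 0.373), and it was -0.24 without WT replicate 3 (adjusted p = 0.0228) and -0.052 with offsets for GC content and length. The Notch3 transcript thus moved across the threshold with 1 library, and an antisense gene, Gm17276, overlaps 6.03% of its exonic bases.

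Notch1, the receptor best known from lymphoid cells and vessels, lies on chromosome 2 from 26457903 to 26516663 (minus strand). It was at 66.3, 58.0 and 67.5 CPM in WT and at 60.8, 68.7 and 56.0 CPM in CKO replicates 1 to 3, with the genotypes interleaved. Its log2 fold change of -0.048 had an interval of -0.30 to 0.21 (adjusted p = 0.845). With offsets for GC content and length it was 0.078. Antisense genes overlap 9.76% of its exonic bases.

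Notch4, a receptor known from endothelial cells, was the least abundant of the 4 and lies on chromosome 17 from 34564268 to 34588503 (plus strand). It was at 4.98, 3.34 and 4.48 CPM in WT and at 4.28, 3.58 and 4.81 CPM in CKO replicates 1 to 3, again interleaved. The log2 fold change was -0.012 with a wide interval of -0.49 to 0.47 (adjusted p = 0.984), behind which stood 72 to 125 counts per library. Summed over the 10 endothelial markers looked up, from Pecam1 to Vwf, the level was 35.1 to 46.8 CPM in WT and 32.8 to 37.3 CPM in CKO. In edgeR 0 of the 10 passed, where 4.51% and 2.88% of all genes were lower and higher. At an unadjusted p under 0.05, 1 was lower and 1 higher, where 11.8% and 9.56% of all genes were. DESeq2 called 1 of them (lower) and limma-voom 0. The part of endothelial RNA in the Notch1 and Notch4 levels was not tested.

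**Figure D2:**
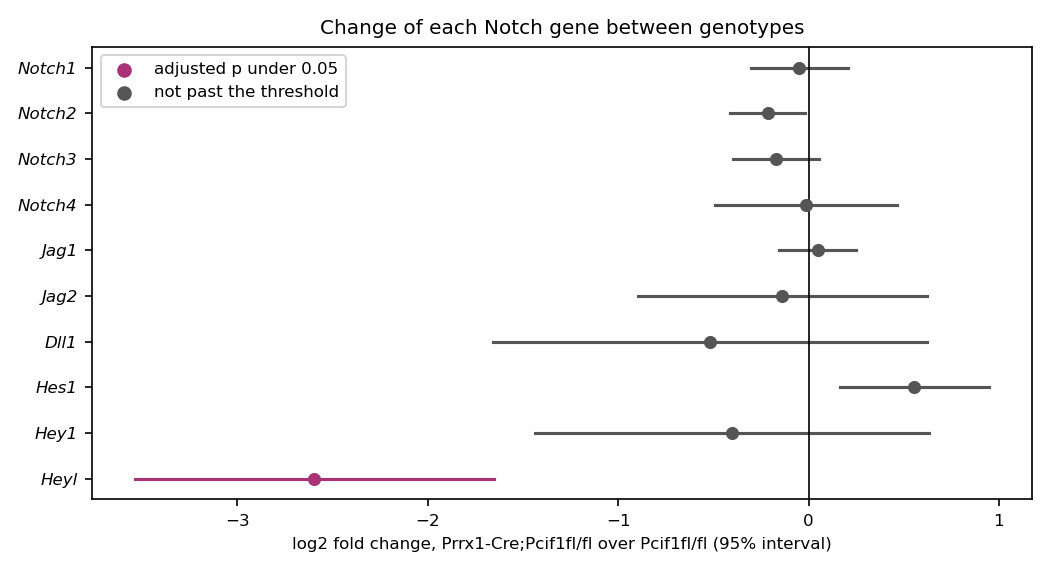
Log2 fold change of each Notch gene, CKO over WT, with its 95% interval from edgeR, where 0 is no difference and purple marks an adjusted p under 0.05. Heyl, at -2.60 (-3.54 to -1.65), is the only purple gene, and the intervals of Notch2 and Hes1 also leave out 0 while those of Dll1, Hey1 and Jag2 are wide.

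Among the receptors, Notch2 held the largest share of transcripts, counted as reads per kilobase of the union of annotated exons. It made up 65.8%, 66.3% and 68.2% of the receptor transcripts in WT and 64.4%, 65.7% and 65.6% in CKO replicates 1 to 3. All CKO shares were below all WT shares, by 1.52 percentage points in the means, which is close to the SD of 1.28 within WT, and by 0.799 points without WT replicate 3 and 2.02 points without WT replicate 1. Notch3 made up 19.7% ± 1.86 and 19.8% ± 0.821, Notch1 12.2% ± 0.653 and 13.3% ± 0.784, and Notch4 1.43% ± 0.237 and 1.62% ± 0.303 (WT and CKO, SD, n = 3), with overlap between genotypes for each. The order of Notch1 and Notch3 rests on the length used, since per kilobase of the longest annotated transcript Notch1 made up 16.8% and 18.4% and Notch3 18.3% and 18.4%, with Notch2 at 63.2% and 61.5%. By reads with no length, Notch1 was at 16.3% and 17.8% and Notch3 at 15.0% and 15.0%. The summed receptor level was 38.0, 35.5 and 37.2 RPKM, which is CPM divided by the exon length in kilobases, in WT and 31.9, 34.3 and 31.5 RPKM in CKO, with no overlap. These shares and sums were not tested, and 0.1 is the smallest two-sided p that an exact permutation of 3 WT and 3 CKO libraries could give.

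**Figure D3:**
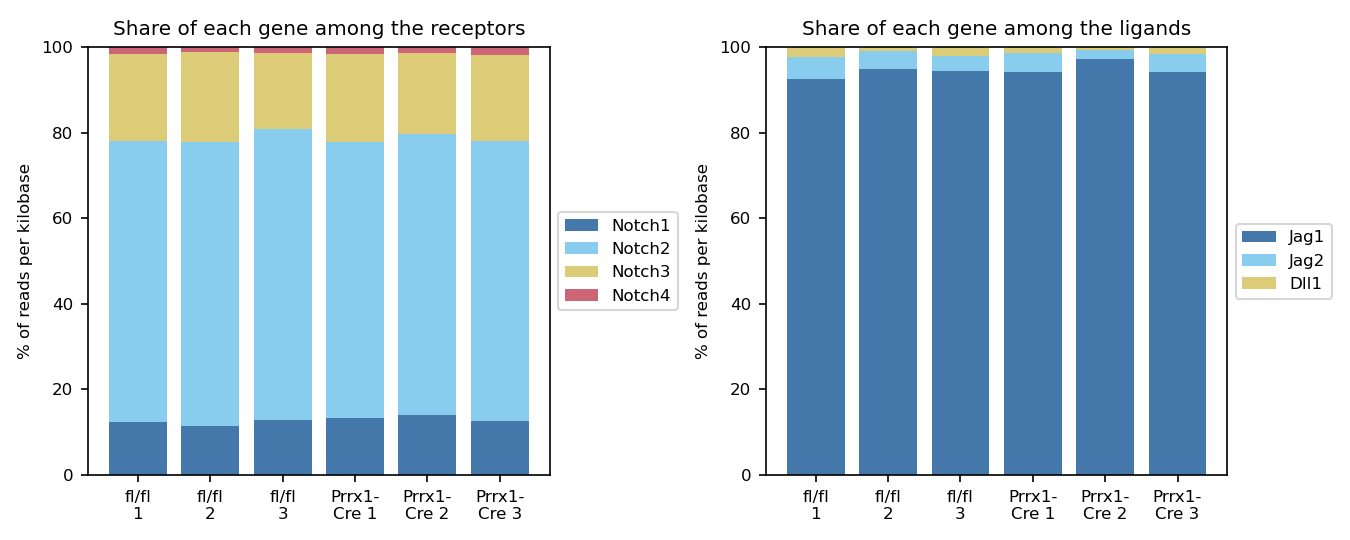
Share of each gene, in % of reads per kilobase, among the 4 receptors (left) and the 3 ligands (right), with 1 stacked bar per library, WT (fl/fl) first and CKO (Prrx1-Cre) after it. Notch2 fills 64.4% to 68.2% of the receptor bars and Jag1 fills 92.6% to 97.2% of the ligand bars in the 6 libraries.

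Jag1, a membrane ligand that activates Notch on adjacent cells, was nearly the only ligand among the 3, and it lies on chromosome 2 from 137081456 to 137116644 (minus strand). It was at 53.7, 54.5 and 50.7 CPM in WT and at 56.4, 52.7 and 55.1 CPM in CKO replicates 1 to 3, with the genotypes overlapping. The log2 fold change was 0.047 (standard error 0.089, interval -0.16 to 0.25, adjusted p = 0.799). Jag1 was one of the steadiest of the 10, with coefficients of variation of 3.82% in WT and 3.47% in CKO.

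Jag2, the second Jagged ligand, lies on chromosome 12 from 112907819 to 112929776 (minus strand) and was at 3.49, 2.87 and 2.19 CPM in WT and at 3.29, 1.39 and 3.03 CPM in CKO replicates 1 to 3. CKO replicate 2 was the lowest of the 6, and the genotypes overlapped (log2 fold change -0.14, interval -0.90 to 0.62, adjusted p = 0.850). Dll1, a Delta-type ligand, lies on chromosome 17 from 15367354 to 15376872 (minus strand) and was at 1.00, 0.368 and 0.825 CPM in WT and at 0.585, 0.249 and 0.674 CPM in CKO. Its counts were 5 to 23 per library, an antisense gene covers 20.5% of its exonic bases, and replicate 2 was the lowest library of both genotypes. Its log2 fold change of -0.52 had an interval of -1.66 to 0.62 (adjusted p = 0.600), and its coefficients of variation, 44.9% in WT and 44.6% in CKO, were wider than counting error gives (23.1% and 30.6%). Leaving out 1 library gave -0.84 (without WT replicate 2) to -0.20 (without CKO replicate 2). In reads per kilobase, Jag1 made up 94.0% ± 1.26 of the ligand transcripts in WT and 95.1% ± 1.81 in CKO.

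Heyl, a Hairy/Enhancer-of-split-related repressor known as a Notch target in vascular smooth muscle and pericytes, lies on chromosome 4 from 123233556 to 123249875 (plus strand). Its counts were 31, 26 and 50 in WT and 4, 4 and 6 in CKO replicates 1 to 3, which is 1.35, 0.956 and 1.79 CPM against 0.180, 0.199 and 0.289 CPM. The lowest WT library was above the highest CKO library. The log2 fold change was -2.60 (standard error 0.41, interval -3.54 to -1.65, adjusted p = 0.00696), or 6.04-fold lower in CKO (3.14 to 11.6). It was also past a fold threshold of 1 on the log2 scale, which 2.50% of genes passed in the lower direction. Heyl passed the expression filter through the WT libraries, since 3 WT and 0 CKO libraries reached its cutoff of 0.442 CPM, and with no filter the log2 fold change was -2.60 with an adjusted p of 0.00240. In bulk RNA, fewer cells that express Heyl and less Heyl RNA per cell cannot be told apart.

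Markers of mural cells (pericytes and smooth muscle), in which Heyl and Notch3 are known to be expressed, were in part lower with Heyl. Of 9 mural markers tested, 3 were lower in CKO (Rgs5, at -1.99 on the log2 scale, Mcam at -1.05 and Abcc9 at -3.29) and 0 were higher in edgeR (5 lower and 1 higher at an unadjusted p under 0.05), where 4.51% and 2.88% of all genes were lower and higher (11.8% and 9.56% unadjusted). DESeq2 gave 4 lower and 1 higher, and limma-voom 3 and 0. The higher one was Cspg4, a pericyte proteoglycan, at 3.58, 3.79 and 3.30 CPM in WT and 5.99, 5.62 and 4.96 CPM in CKO replicates 1 to 3 (log2 fold change 0.64, adjusted p = 0.0541 in edgeR). Tagln was at 0.75 on the log2 scale, with overlap between genotypes (adjusted p = 0.264). Abcc9, a subunit of potassium channels, was at 4.28, 3.75 and 4.27 CPM in WT and 0.405, 0.597 and 0.241 CPM in CKO replicates 1 to 3. Only CKO replicate 2 reached the filter cutoff of 0.442 CPM, so that Abcc9, like Heyl, passed the filter through the WT libraries. The mural list summed to 512 to 677 CPM in WT and 546 to 572 CPM in CKO, and without Acta2, which makes up most of it, to 59.6 to 63.9 and 38.2 to 42.1 CPM. Myh11, the smooth muscle myosin, was at 3.06 to 3.49 CPM in WT and 3.48 to 3.56 CPM in CKO. The part of mural cells in the Heyl difference was not tested.

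The genes whose level over the 6 libraries was most like that of Heyl were Fat4 (an atypical cadherin), Prss35 (a serine protease-like protein) and Ednra (the endothelin A receptor), with Pearson correlations of 0.998, 0.998 and 0.997 of log2(CPM + 0.5). Ednra was at 22.1, 14.8 and 26.7 CPM in WT and at 5.36, 5.28 and 5.68 CPM in CKO replicates 1 to 3, with WT replicate 2 lowest and WT replicate 3 highest in WT, as for Heyl. The 6 points are the same libraries and fall into the genotypes, so that a high value is a description of likeness only.

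Hes1, a repressor that responds to Notch and also to other signals and that feeds back on its own gene, lies on chromosome 16 from 30064384 to 30067796 (plus strand). It was at 10.3, 10.1 and 9.97 CPM in WT and at 16.0, 11.3 and 17.4 CPM in CKO replicates 1 to 3. All CKO libraries were above all WT libraries, and CKO replicate 2 was close to WT. The means were 10.1 ± 0.149 and 14.9 ± 3.18 CPM (SD, n = 3), with a log2 fold change of 0.56 (standard error 0.17, interval 0.16 to 0.95), or 1.47-fold (1.12 to 1.93). It missed the threshold in edgeR (adjusted p = 0.0975) and in DESeq2 (adjusted p = 0.0503). It passed without WT replicate 3 (0.55, adjusted p = 0.0212) and without CKO replicate 2 (0.72, adjusted p = 0.0416), and its adjusted p over all 14 alternatives ran from 0.0212 to 0.349.

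Hey1, a Hairy-related repressor known from vessels and from osteoblast cultures, lies on chromosome 3 from 8663359 to 8667256 (minus strand) and was at 1.18, 0.882 and 0.610 CPM in WT and at 0.450, 0.448 and 1.11 CPM in CKO replicates 1 to 3. CKO replicate 3 lay at the WT level and the other two below it, so that the genotypes overlapped. Hey1 had a log2 fold change of -0.40 (interval -1.43 to 0.63, adjusted p = 0.659) on 9 to 27 counts per library, and leaving out 1 library gave -0.96 (without CKO replicate 3) to -0.16 (without WT replicate 1). Its spread between libraries, with coefficients of variation of 32.0% in WT and 56.8% in CKO, was wider than counting error gives (21.0% and 26.7%). The log2 ratio of the Heyl RPKM to the Hes1 RPKM within a library, which does not depend on library size, was -4.25, -4.74 and -3.80 in WT and -7.80, -7.15 and -7.24 in CKO replicates 1 to 3. These ratios differed by -3.13 in the means. They did not overlap, which is no separate result. It follows from Heyl being lower and Hes1 higher in every CKO library than in any WT library.

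**Figure D4:**
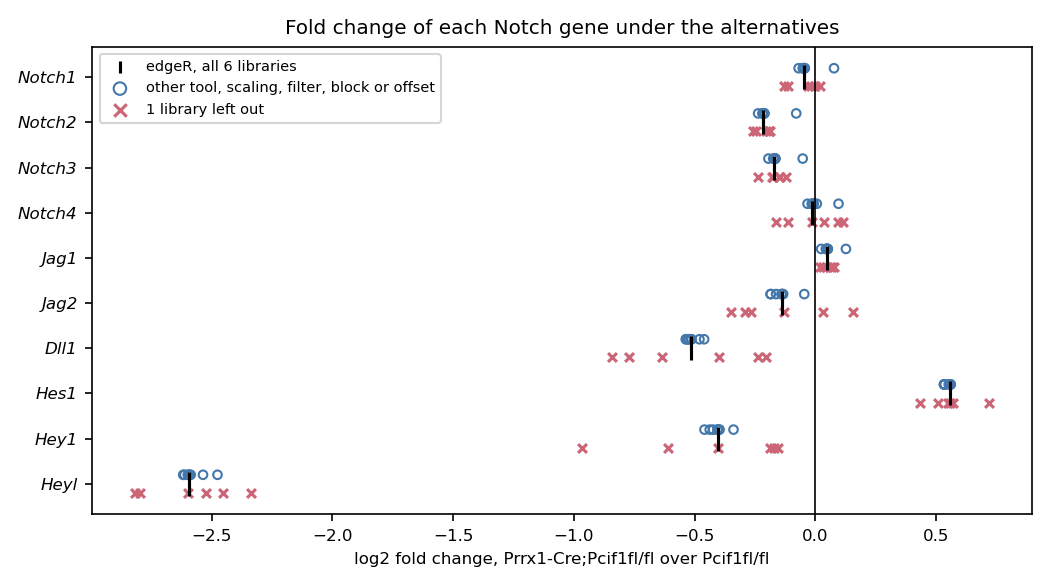
Log2 fold change of each Notch gene, CKO over WT, with all 6 libraries in edgeR (black bar), under another tool, scaling, filter, block or offset (blue circles), and without 1 library (red crosses). Heyl stays between -2.82 and -2.34 and Hes1 between 0.43 and 0.72, whereas Notch1, Notch4 and Jag2 lie on both sides of 0.

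On the RPKM scale by union exon length, the mean WT levels ran from Notch2 at 24.6, through Jag1 at 9.09, Notch3 at 7.25, Hes1 at 4.97 and Notch1 at 4.49, to Notch4 at 0.530, Jag2 at 0.409, Hey1 at 0.273, Heyl at 0.267 and Dll1 at 0.174. Neighbours down to the step from Notch1 to Notch4 had ranges that did not overlap, and from Notch4 downward each neighbour overlapped the next. In CKO the order was Notch2 at 21.2, Jag1 at 9.39, Hes1 at 7.31, Notch3 at 6.44 and Notch1 at 4.35, then Notch4 at 0.524, Jag2 at 0.369, Hey1 at 0.205, Dll1 at 0.119 and Heyl at 0.0435. Hes1 and Notch3 did not differ there beyond their spread, nor did the neighbours from Notch4 to Dll1, and Heyl stood below Dll1 with no overlap. Part of this order depends on the length, as an alternative chosen after seeing the data shows. By the longest annotated transcript Notch3, Hes1 and Notch1 were at 7.32, 6.90 and 6.74 RPKM in WT, where each neighbour overlapped the next. In CKO, Hes1 was then at 10.1 and Jag1 at 9.75 RPKM, and Notch1 and Notch3 at 6.52 and 6.50 RPKM, with overlap within each pair. The place of Notch2 at the top and of Heyl below Dll1 in CKO was the same by either length.

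Of the other Notch pathway genes, 66 were looked up and 54 were tested. Of these, 2 were lower in CKO and 1 was higher, with a median log2 fold change of -0.046, where 4.51% and 2.88% of all genes were lower and higher. At an unadjusted p under 0.05, 7 were lower and 2 higher, where 11.8% and 9.56% of all genes were. The list thus held about as many lower genes as its size gives over all genes, and no more higher ones. The genes past the threshold were Mfap2, Tle2 and Mfap5. Mfap2 and Mfap5 encode microfibril proteins of the extracellular matrix that are also listed as non-canonical Notch ligands, and Tle2 encodes a Groucho-family corepressor that Hes proteins recruit.

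Mfap2 was at 14.1, 15.1 and 19.1 CPM in WT and at 7.52, 6.17 and 5.44 CPM in CKO replicates 1 to 3 (log2 fold change -1.34, adjusted p = 0.00304). Tle2 was at 28.8, 25.7 and 32.4 CPM in WT and at 11.2, 8.86 and 14.2 CPM in CKO (log2 fold change -1.34, adjusted p = 0.00317). Mfap5 was at 11.1, 10.2 and 9.04 CPM in WT and at 18.4, 15.9 and 14.3 CPM in CKO (log2 fold change 0.68, adjusted p = 0.0268). The genotypes did not overlap for any of the 3, and the microfibril pair moved in opposite directions. Mfap5 was no longer past the threshold without any 1 of WT replicate 2 and CKO replicates 1, 2 and 3.

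**Figure D5:**
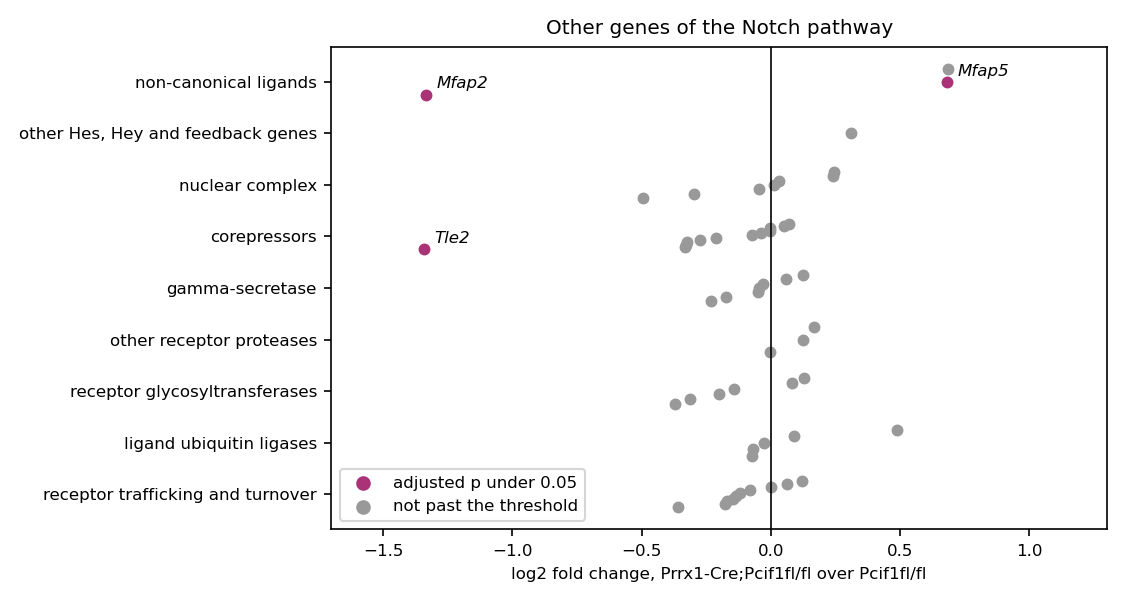
Log2 fold change, CKO over WT, of the 54 other Notch pathway genes tested, 1 point per gene, in rows by role, with purple for an adjusted p under 0.05 and grey for the rest. Mfap2 and Tle2, both at -1.34, and Mfap5, at 0.68, are the purple points, and the γ-secretase and protease rows lie near 0.

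Rbpj, the DNA-binding partner of the Notch intracellular domain, was at 365 ± 74.0 CPM in WT and 372 ± 6.58 CPM in CKO (SD, n = 3, log2 fold change 0.030, adjusted p = 0.925), and without WT replicate 3 it was 0.21 (adjusted p = 0.0247). Lfng, a glycosyltransferase that modifies the receptors, was at 65.1 and 68.9 CPM (adjusted p = 0.803). Of the 7 γ-secretase genes, 0 passed in edgeR, DESeq2 or limma-voom and 0 had an unadjusted p under 0.05 in edgeR. The same held for the 3 other receptor proteases and the 5 ubiquitin ligases of the ligands. Of the 6 receptor glycosyltransferases 0 passed in the 3 tools and 2 were lower at an unadjusted p under 0.05, and of the 12 corepressors Tle2 alone passed. Without WT replicate 3 the pathway count became 7 lower (Tle2, Mfap2, Mfng, Hdac1, Mib2, Crebbp and Nedd4) and 6 higher (Rbpj, Adam10, Snw1, Maml2, Dtx3l and Mfap5), where 10.4% and 11.1% of all genes tested were lower and higher. Dll4 (4 to 15 counts per library), Hey2 (1 to 22), Nrarp (0 to 5) and Hes5 (1 count in all 6) were among the 12 genes too low to test.

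The cultures held other cell types beside the MSCs, and the counts of markers called below stand against 4.51% lower and 2.88% higher over all genes. The 10 macrophage markers summed to 30033 to 32922 CPM in WT and 30542 to 33651 CPM in CKO, most of it Lyz2, and 1 of them, Fcgr1, an Fc receptor, was higher in CKO (2 in DESeq2). Prrx1, the mesenchymal gene whose promoter drives Cre, was at 211 to 283 CPM in WT and 276 to 283 CPM in CKO. Of 8 adipocyte markers 4 were lower. Adipoq, the adipokine adiponectin, was at 53.8, 42.9 and 44.3 CPM in WT and at 1.49, 0.697 and 0.289 CPM in CKO replicates 1 to 3 (log2 fold change -5.80), and Pparg, the adipogenic nuclear receptor, was at -1.57 on the log2 scale. The lipid droplet genes Plin1 and Cidec had 59 to 115 and 32 to 52 counts in WT and 0 and 0 to 1 counts in CKO. Adipoq, Plin1 and Cidec, like Heyl, passed the expression filter through the WT libraries. Fabp4 was at 66.3 to 78.8 CPM in WT and 85.3 to 107 CPM in CKO (log2 fold change 0.46, adjusted p = 0.0545 in edgeR, and called higher in DESeq2). Of 8 osteoblast markers tested 3 were lower (Sp7 at -1.88, Ibsp at -1.25 and Alpl at -1.11 on the log2 scale) and 1, Col1a1 at 0.61, was higher. Of 10 stromal markers 3 were lower and 3 higher, and Lepr, the leptin receptor of marrow stromal cells, was the most changed of them at -2.72 on the log2 scale. The part of these other cells in the levels of the 10 Notch genes was not tested.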

How the data were processed

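Poly(A) RNA of MSCs from Pcif1fl/fl (WT) and Prrx1-Cre;Pcif1fl/fl (CKO) mice was sequenced in 3 libraries each, grouped by the sample labels. The authors mapped reads to mm10 with HISAT2 and deposited unnormalized counts per gene. Which program counted them, with which annotation and strand setting, is not given in the sources used here, so that reads of overlapping or antisense genes cannot be told apart. The 92 rows that repeat an ID held the same counts and were used once. The submitters' processing notes also list FastQC and DESeq2.

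Counts were tested with edgeR 4.0.16 in R 4.3.3 (filterByExpr, TMM, glmQLFit, glmQLFTest, no covariate) over 13733 genes with Benjamini-Hochberg adjustment. Positions, exon lengths and overlaps came from GENCODE M21 on GRCm38, where 20059 of 20071 IDs were found. Intervals are 95% and cover the spread between libraries and counting error only. The members were taken by symbol and pathway role, but they and the lists were chosen with earlier results of these data known. Named genes were the 10 members, pathway genes past the threshold, Rbpj, Lfng, Dll4, Hes5, Hey2 and Nrarp, the 3 genes most like Heyl, and checks of the labels. Single cell type markers, and the pathway genes past the threshold without WT replicate 3, were named after their values were seen. Alternatives were DESeq2 1.42.0, other scalings, limma-voom (limma 3.58.1), other filters, the replicate number as a block, GC and length offsets, and leaving out each library. On simulated counts for WT against CKO with 200 genes changed by 2 (log2), edgeR called 200, with 7 false calls among 13723 tested. The simulation gave all genes the same dispersion and held no library that stood apart as WT replicate 3 did. Its changed genes were drawn above a mean level that Heyl, Hey1 and Dll1 did not reach. It thus checks the running of the test and not the calls made here. Same-numbered WT and CKO libraries did not deviate together (correlations 0.055, -0.045 and -0.013). With so few libraries, these correlations cannot exclude that the numbers pair them.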

Additional observations from a re-analysis of the deposited data

How the results depend on the processing

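Heyl kept its direction and its side of the threshold in all 14 alternatives (log2 fold change -2.82 to -2.34, adjusted p 0.000333 to 0.0478), and Hes1, Dll1, Hey1, Jag1, Notch2 and Notch3 kept their direction, though without 1 library Dll1 ran from -0.84 to -0.20 and Hey1 from -0.96 to -0.16. Notch1 was at 0.078 with GC and length offsets and between -0.13 and 0.021 without 1 library. Notch4 was at 0.0064 in limma-voom, 0.096 with the offsets, and -0.16 to 0.11 without 1 library, and Jag2 was at -0.35 to 0.16 without 1 library. Leaving out each library gave 1 to 3 members lower and 0 to 1 higher, 2 to 7 pathway genes lower and 0 to 6 higher. With a fold threshold of 1 (log2), 0 pathway genes were higher. The difference in the Notch3 share of receptor transcripts, 0.158 percentage points, ran from -0.893 to 0.876 without 1 library, and that of Notch2, -1.52, from -2.02 to -0.799. The cause was not tested. The counts were highest without WT replicate 3, where 1447 genes were lower and 1544 higher, against 620 and 396 with all libraries. The offsets gave 673 and 703, and DESeq2 830 and 593. The replicate block gave 1 member lower and 0 higher, and 503 and 267 over all genes. Dll1, Hey1 and Heyl had 50 or fewer counts per library.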

Other observations

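The spread of Hes1 within WT was smaller than counting alone gives, with a coefficient of variation of 1.47% over 3 libraries where counting error amounts to 6.17%, and it was 21.4% in CKO where counting amounts to 5.64%. For Heyl the corresponding values were 30.6% and 16.7% in WT and 26.1% and 46.3% in CKO. The log2 ratio of the Hes1 RPKM to the Notch2 RPKM within a library was -2.31 ± 0.066 in WT and -1.56 ± 0.40 in CKO (SD, n = 3). Its lack of overlap is no separate result, since Hes1 was higher and Notch2 lower in every CKO library. The log2 ratio of Jag1 to Notch2, also in RPKM, was 0.26 higher in CKO, with no overlap. It restates mostly the Notch2 levels, as the log2 fold change was 0.047 for Jag1 and -0.21 for Notch2. The log2 ratio of Hey1 to Hes1 (RPKM) overlapped between genotypes.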
